A study of Mus musculus with 8 samples.

Results

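Reads of 8 genes that mark blood and blood vessels were followed through 8 libraries of sorted mouse sensory neurons. The genes were 3 haemoglobin genes (Beta-s, Hba-a1 and Hba-a2) and 5 endothelial genes (Pecam1, Cdh5, Cldn5, Flt1 and Kdr), out of 22609 gene rows in each library. They were chosen by symbol, as markers of red cells and of vessel lining, at a time when their read counts in these libraries were already known. The choice therefore used the values described here, so the levels of these genes are a description and their p-values are no independent support for any pattern.

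Dorsal root ganglia (DRG) hold the cell bodies of the sensory neurons that serve trunk and limbs. The study asked which genes differ between female and male neurons that innervate the hindpaw and thigh. Libraries came from 4 female and 4 male naive C57BL/6J mice aged 8 to 12 weeks, with every female in the estrous phase. Mice of both sexes received WGA-488, a fluorescent lectin that travels back along axons, in hindpaws and thighs, and labelled cells were sorted by fluorescence from L3 to L5 ganglia of mice perfused with phosphate buffer, 1 mouse for each library. The sort selects for tracer and not for a neuronal gene, so the cells gated can differ in type, and libraries were amplified by SMART-seq2, which copies polyadenylated RNA from its tail and amplifies the cDNA by PCR. In such pooled samples fewer cells of a type and less RNA per cell cannot be told apart.

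Red cells carry haemoglobin, a tetramer of alpha and beta globin chains, and reticulocytes, the youngest circulating red cells, still hold large amounts of globin mRNA. Endothelial cells line every vessel of the ganglion and are held together by adhesion molecules (Pecam1), adherens junctions (Cdh5, or VE-cadherin) and tight junctions (Cldn5, claudin 5), and they receive growth signals of the VEGF family through Flt1 and Kdr, also called VEGF receptors 1 and 2. Since none of these genes is a defining marker of sensory neurons, they are used to read how much blood or vessel RNA a neuronal preparation holds.

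Library totals were 4.80 to 7.33 M reads assigned to genes (M, 1000000 reads), so that 3 reads, taken here as the smallest level that can be told from 0, stood for 0.409 to 0.625 counts per 1000000 gene reads (CPM). The libraries matched their labels: Xist, the transcript of the inactive X chromosome, had 395 to 764 reads in the females and 0 to 6 in the males. Neuronal and glial RNA were both abundant, with Tubb3, a neuronal tubulin, at a mean of 2636 CPM per kilobase of exon and Apoe, a lipid carrier of glia, at 3727. Female replicate 4 stood apart from the rest before any of the 8 genes is looked at. Its counts differed from each other female library by a chi-square per degree of freedom of 30.1 to 44.9, against 2.82 to 12.1 between the other libraries of the same sex. The share of its alignments that were not unique was 46.6%, against 41.4% to 43.3% in the other 7. The fold changes and group means of the 8 genes are given with and without it.

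The alpha globin genes were the simplest to describe, since Hba-a1 and Hba-a2 had 0 reads in all 8 libraries. In the mm9 genome, Hba-a1 lies on the plus strand of chromosome 11 from 32183511 to 32184465 and Hba-a2 on the same strand from 32196489 to 32197301. Their coding sequences differed at 1 of 426 bases, an identity of 99.8%, and the difference fell in the last coding exon, where Hba-a1 and Hba-a2 differ by C81T, counted from 1 at the 5′ end of that exon. The beta globin Beta-s had a near copy too. It was placed through the RefSeq promoter of Hbb-bs, for which Beta-s is a listed synonym and which matched the genome exactly at 1 position, at the gene annotated there as Hbb-b1 on the minus strand of chromosome 7 from 110975048 to 110976610. Its neighbour Hbb-bt matched the gene annotated as Hbb-b2, from 110961038 to 110962510, and the coding sequences of the pair differed at 1 of 441 bases, C102T in the same exon. The last coding exons are shown because they hold the only coding base by which a read could tell each pair apart, and the capital letter marks that base. All were read 5′ to 3′ on the coding strand of NCBIM37 (mm9), at chr11:32184263-32184388 for Hba-a1, chr11:32197080-32197205 for Hba-a2, chr7:110975182-110975307 for Beta-s and chr7:110961173-110961298 for Hbb-bt.
Hba-a1: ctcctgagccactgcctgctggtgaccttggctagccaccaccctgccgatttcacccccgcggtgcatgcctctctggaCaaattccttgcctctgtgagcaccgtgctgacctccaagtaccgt
Hba-a2: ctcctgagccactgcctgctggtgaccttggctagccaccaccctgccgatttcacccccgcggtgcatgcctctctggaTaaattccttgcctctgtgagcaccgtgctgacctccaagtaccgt
Beta-s: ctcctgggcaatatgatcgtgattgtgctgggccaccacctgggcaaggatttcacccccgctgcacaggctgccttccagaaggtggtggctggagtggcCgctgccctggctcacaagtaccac
Hbb-bt: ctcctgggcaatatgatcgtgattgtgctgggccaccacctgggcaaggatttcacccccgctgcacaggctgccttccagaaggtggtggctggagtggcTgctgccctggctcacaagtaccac

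These copies bear on what a read count can show, because the deposited files set aside reads with several alignments as a class of their own. Of the 50-base windows along the annotated exons of Hba-a1, the read length used, 50 of 665 (7.52%) occurred once in the genome, and of those of Hba-a2 50 of 523 (9.56%). The 2 alpha globin genes shared 454 windows with each other. In Beta-s, 384 of 716 windows (53.6%) were unique, and 283 were shared with the Hbb-bt locus. The endothelial genes had no such limit: every window of Pecam1, Cdh5, Cldn5 and Kdr was unique, and 99.8% of those of Flt1. The alpha globin genes are thus listed at 0 where few windows could give a uniquely aligned read, and the part of this in their count of 0 was not tested. The count of Beta-s can likewise leave out reads from its repeated windows, and the split of reads between the near-identical beta globin copies is uncertain. The rows Hbb-b1, Hbb-b2, Hbb-bh1 and Hbb-y were also at 0 in all 8 libraries, and the alpha-like Hbq1b had 2 to 11 reads. Hbb-b1 is thus counted apart from Beta-s, although Beta-s was placed at the gene that GENCODE M1 names Hbb-b1. The annotation used for the counts is not given. Reads that fall on overlapping genes are set aside as ambiguous, and their part in the globin counts was not tested.

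**Figure D1:**
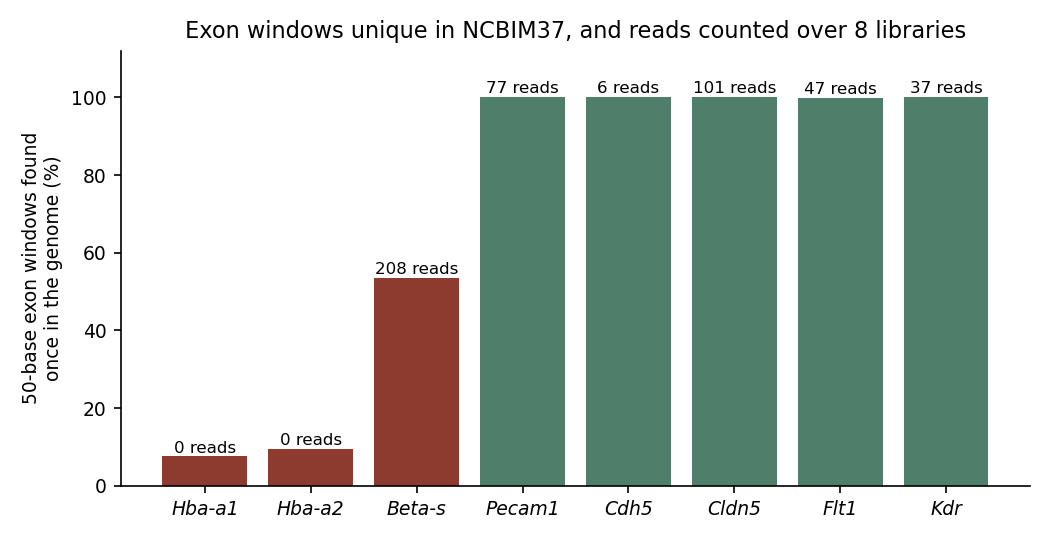
Percent of 50-base exon windows found once in the mm9 genome (bars, vertical axis) for each of the 8 genes, with the reads counted over 8 libraries above each bar. Hba-a1 and Hba-a2 are at 7.52% and 9.56% with 0 reads each, Beta-s is at 53.6% with 208 reads, and the 5 endothelial genes are at 99.8% or above.

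Beta-s, the adult beta globin gene, was the only one of the 3 haemoglobin genes with reads, and most of them came from 1 library. It had 13, 14, 2 and 162 reads in female replicates 1 to 4, and 0, 1, 5 and 11 reads in male replicates 1 to 4. Female replicate 4 was far above all others, and the remaining female and male libraries overlapped. In CPM, female replicate 4 was at 27.3 (95% exact Poisson interval 23.3 to 31.8), the next library, female replicate 2, at 2.43 (1.33 to 4.08), and male replicate 4, the highest of the males, at 1.63 (0.812 to 2.91). The intervals cover counting error only, since reads without molecular identifiers can be PCR copies. The level in female replicate 4 was 26.4 times the mean of the other 7 libraries, and that library held 79.0% of the CPM summed over the 8, where equal levels would give 12.5%. Female libraries averaged 7.98 ± 12.9 CPM (SD, n = 4) and male libraries 0.650 ± 0.744 (SD, n = 4), and the SD of the females exceeded their mean.

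Without female replicate 4 the female mean of Beta-s was 1.54 ± 1.03 CPM (SD, n = 3), and the female libraries lay between 0.417 and 2.43 against 0 to 1.63 in the males. Reads above the 3-read floor remained in 4 of these 7 libraries (13 and 14 reads in females, 5 and 11 in males), so Beta-s was detected outside female replicate 4 in both sexes. Across all libraries its female over male log2 fold change was 3.58 ± 1.23 (SE), with an unadjusted p of 0.0147 and an adjusted p of 0.637 (edgeR, quasi-likelihood test). Leaving out female replicate 4 brought the log2 fold change to 1.28 ± 0.84 (SE), with an unadjusted p of 0.158 and an adjusted p of 0.575 (edgeR). The spread between replicates of Beta-s was also the widest in the tested table. Its biological coefficient of variation was 1.06 and ranked 1 of 12518 genes, against 0.266 for genes of its abundance, in a fit that includes female replicate 4.

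**Figure D2:**
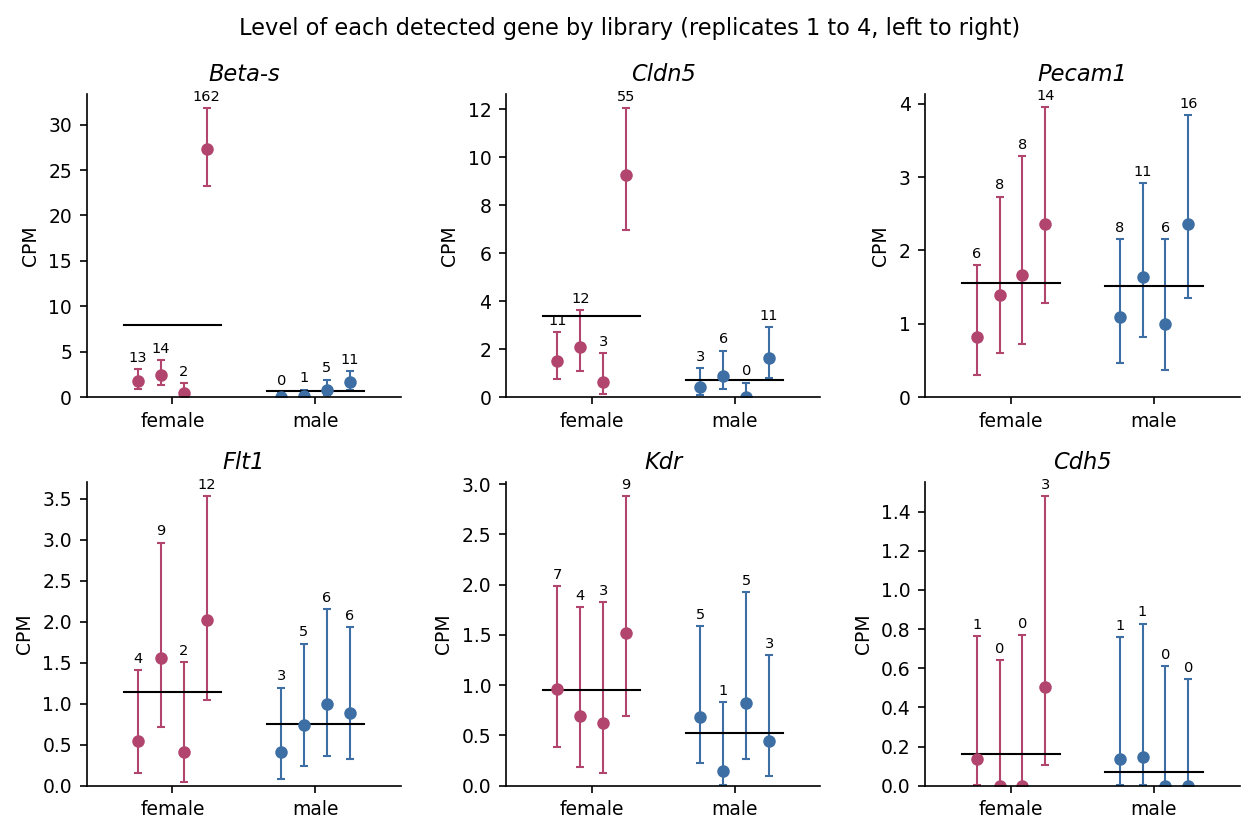
Level in CPM (vertical axes, 1 panel for each gene with reads) in the 4 female and 4 male libraries, replicates 1 to 4 from left to right, with 95% exact Poisson intervals for counting error, the read count above each point and a line at the mean of each sex. Female replicate 4 is the highest library for Beta-s (27.3 CPM), Cldn5 (9.27 CPM), Cdh5, Flt1 and Kdr, and male replicate 4 is the highest for Pecam1 (2.37 CPM).

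Among the endothelial genes, Cldn5 showed the same library apart. This claudin seals the paracellular space between endothelial cells, and its single exon lies on the plus strand of chromosome 16 from 18776940 to 18778353. It had 11, 12, 3 and 55 reads in female replicates 1 to 4 and 3, 6, 0 and 11 in male replicates 1 to 4. Female replicate 4 was again the highest, while the other females overlapped the males. Its level in that library was 9.27 CPM (95% exact Poisson interval 6.98 to 12.1), which was 9.07 times the mean of the other 7, and the library held 56.5% of the summed CPM. The female mean was 3.37 ± 3.98 CPM (SD, n = 4), or 1.41 ± 0.734 (SD, n = 3) without replicate 4, beside 0.732 ± 0.699 (SD, n = 4) for males. Cldn5 did not pass the default expression filter, and in a fit of all 17254 genes with reads its female over male log2 fold change was 2.14 ± 0.82 (SE), with an unadjusted p of 0.0207 and an adjusted p of 0.716 (edgeR). Without female replicate 4 the same unfiltered fit gave 0.91 ± 0.73 (SE), with an adjusted p of 0.712 (edgeR).

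Pecam1, the adhesion molecule of endothelial cells, platelets and leukocytes, did not share this pattern. The gene spans 106515531 to 106611942 on the minus strand of chromosome 11. It had 6, 8, 8 and 14 reads in female replicates 1 to 4 and 8, 11, 6 and 16 in male replicates 1 to 4. The sexes overlapped throughout, and the highest library was male replicate 4 (2.37 CPM), beside female replicate 4 (2.36 CPM). The female mean was 1.56 ± 0.637 CPM (SD, n = 4), the male mean was 1.52 ± 0.631 CPM (SD, n = 4), and female replicate 4 held 19.1% of the summed CPM. The log2 fold change of Pecam1 was -0.01 ± 0.41 (SE), with an adjusted p of 0.997 (edgeR), and -0.29 ± 0.45 (SE) without female replicate 4, with an adjusted p of 0.838 (edgeR). With standard errors of this size equal levels in the sexes are not shown either. Its biological coefficient of variation was 0.278, close to the 0.284 of genes of its abundance.

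The receptors of VEGF were near the limit of detection. Flt1, a receptor that binds VEGF-A and placental growth factor, lies on the minus strand of chromosome 5 from 148373180 to 148537587, and it had 4, 9, 2 and 12 reads in female replicates 1 to 4 and 3, 5, 6 and 6 in males. Kdr, the main signalling receptor for VEGF-A in endothelium, lies on the same strand from 76328852 to 76374483, and it had 7, 4, 3 and 9 reads in females and 5, 1, 5 and 3 in males. For both genes female replicate 4 was the highest library, but by much less than for Beta-s or Cldn5, and the sexes overlapped. It stood at 2.55 times the mean of the other 7 for Flt1 and 2.42 times for Kdr. In the fit without an expression filter the log2 fold change was 0.57 ± 0.57 (SE) for Flt1, with an adjusted p of 0.786 (edgeR). For Kdr it was 0.83 ± 0.58 (SE), with an adjusted p of 0.779 (edgeR). Leaving out female replicate 4 in that fit gave 0.14 ± 0.63 (SE) for Flt1 and 0.53 ± 0.65 (SE) for Kdr.

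Cdh5, the cadherin that defines endothelial adherens junctions, was almost absent from the counts. It lies on the plus strand of chromosome 8 from 106625525 to 106668402, and it had 1, 0, 0 and 3 reads in female replicates 1 to 4 and 1, 1, 0 and 0 in males. Of its 6 reads, 3 fell in female replicate 4, which alone reached the 3-read floor. At this depth no difference between libraries was detectable for Cdh5. Its log2 fold change was 0.97 ± 1.24 (SE) in the fit without an expression filter and -0.34 ± 1.52 (SE) without female replicate 4, so that its direction turned.

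**Figure D3:**
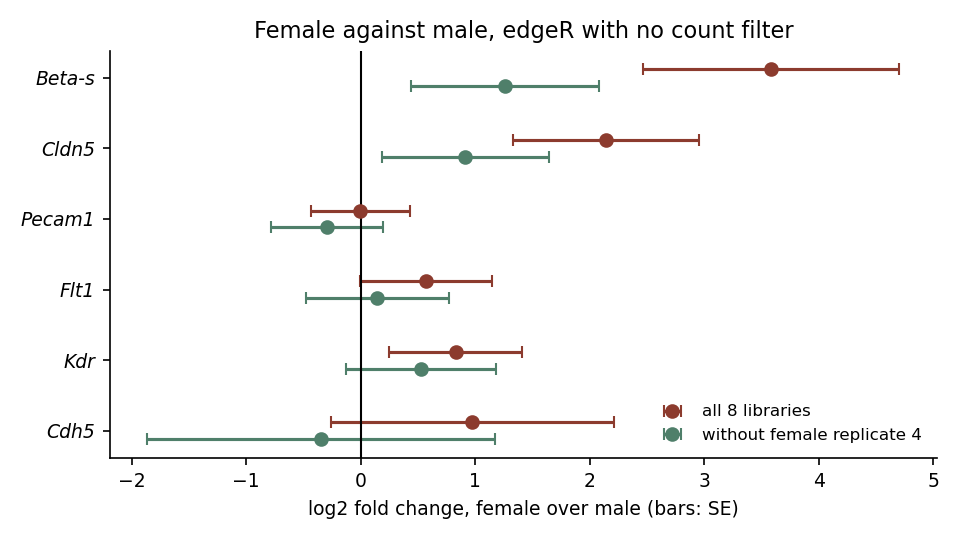
Female over male log2 fold change of each gene with reads (horizontal axis), with bars of 1 standard error, in the edgeR fit without an expression filter, with all 8 libraries and without female replicate 4. Beta-s moves from 3.59 to 1.26 and Cldn5 from 2.14 to 0.91 when that library is left out, Pecam1 stays below 0 at -0.01 and -0.29, and Cdh5 turns from 0.97 to -0.34.

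No member was called between the sexes. Only Beta-s and Pecam1 passed the default expression filter, Beta-s with its reads mostly in female replicate 4, and 0 of these 2 had an adjusted p under 0.05 (edgeR), while 1 of them had an unadjusted p under 0.05. With limma-voom, 0 of the 2 had an unadjusted p under 0.05. Over the whole table of 12512 genes without sex-linked genes, 0.04% passed the adjusted threshold, and an unadjusted p under 0.05 was reached by 4.43% of genes with the higher level in females and 2.64% with the higher level in males. The median log2 fold change over all genes was 0.00341. The group differences of Beta-s and Cldn5 rested mostly on the library of 1 female mouse.

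Per kilobase of exon, Beta-s was the highest of the genes with a mean level of 5.00 CPM per kilobase over 8 libraries, followed by Cldn5 at 1.45, Pecam1 at 0.357, Kdr at 0.101, Flt1 at 0.0818 and Cdh5 at 0.0291. Over the 7 libraries without female replicate 4 the order was the same, with Beta-s at 1.20, Cldn5 at 0.722, Pecam1 at 0.330, Kdr at 0.0860, Flt1 at 0.0686 and Cdh5 at 0.0151 CPM per kilobase. Library by library, Pecam1 was above Kdr and Flt1 above Cdh5 in 8 of 8 libraries. Cldn5 was above Pecam1 in 7 of 8, Beta-s above Cldn5 in 6 of 8 and Kdr above Flt1 in 5 of 8, so the order of these neighbours did not hold in every library. The lengths are those of the GENCODE M1 annotation, and reads that Beta-s may have lost from its repeated windows were not corrected for.

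The globin and the endothelial reads ranked the libraries in similar ways. Since both alpha globin genes were at 0, the globin sum was that of Beta-s alone. The 5 endothelial genes together had 29, 33, 16 and 93 reads in female replicates 1 to 4 and 20, 24, 17 and 36 in male replicates 1 to 4. Female replicate 4 was the highest library of both sums, female replicate 2 was second in both and male replicate 1 was the lowest in both. The endothelial sum was 15.7 CPM in female replicate 4, against 3.33 to 5.73 in the other females and 2.73 to 5.33 in the males, so its level in that library was 3.99 times the mean of the other 7. The female mean of the endothelial sum was 7.18 ± 5.75 CPM (SD, n = 4), or 4.35 ± 1.24 (SD, n = 3) without replicate 4, beside a male mean of 3.61 ± 1.21 CPM (SD, n = 4). Without that library the remaining difference was smaller than either SD. The points share library and depth, so the likeness of the rankings is a description of these 8 libraries.

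To place these shares, all genes with at least 10 reads were read in the same way. Of 14924 such genes, 29.4% had their highest CPM in female replicate 4, and 0.369% had over 50% of their summed CPM there. Among the 8 genes, 5 had at least 10 reads, 4 of these (Beta-s, Cldn5, Flt1 and Kdr) were highest in female replicate 4, and 2 (Beta-s and Cldn5) had over 50% of their CPM in it. Because the choice of the 8 genes used these reads, nothing is drawn from that count. The differences also ran along with transcript length across the table. On the log2(CPM + 1) scale the median difference of female replicate 4 from the mean of the other females was 0.33 for genes with up to 2869 bases of exon and -0.54 for genes with 4987 bases or more. The same difference was 3.57 for Beta-s (863 bases) and 2.14 for Cldn5 (1414 bases), both short, and 0.57 for Pecam1 (4314 bases), 0.76 for Flt1 (11583 bases), 0.52 for Kdr (7278 bases) and 0.53 for Cdh5 (3986 bases). The values of all 6 genes with reads were above the median of their length class, and the part of length in them was not tested.

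Markers of other blood cells were high beside Beta-s in female replicate 4. Of 17 further red cell genes, whose products build the membrane, haem and regulators of erythroid cells, none passed the expression filter, and together they had 49 reads in that library of 109 in all. Their summed level was 8.25 CPM there, against 1.10 to 2.08 in the other females and 0.546 to 2.22 in the males. Alas2, the erythroid enzyme that starts haem synthesis, had 22 of its 34 reads in female replicate 4, Car1 5 of 11 and Epor 3 of 18. The defining regulator Gata1 and the genes Kel and Trim58 were at 0 in all 8 libraries. The 3 most abundant of 11 neutrophil genes had most of their reads in that library: S100a8 had 145 reads against 0 to 26 elsewhere, Ngp 88 against 0 to 9, and S100a9 74 against 0 to 16. The summed level of the neutrophil genes was 83.4 CPM in female replicate 4, against 1.10 to 4.69 in the other females and 0.740 to 9.14 in the males. Of those with at least 10 reads, 10 of 10 were highest there, beside the 29.4% of all such genes. Outside that library the neutrophil sum did not rank with Beta-s, since male replicate 1 had the next highest neutrophil sum and 0 reads of Beta-s. Their part in the level of Beta-s was not tested.

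Other blood cell lists did not stand apart to that degree. The 12 macrophage genes summed to 10.8 CPM in female replicate 4, against 5.91 to 10.2 in the other females, and the 11 lymphocyte genes to 4.55 CPM, against 2.08 to 2.95 in the other females and 1.92 to 4.37 in the males, with Cd3d and Cd3g at 0 in every library. The 11 platelet genes summed to 22.1 CPM, below the 37.5 to 41.0 of the other females and within the 14.5 to 28.4 of the males. The most abundant of them over all libraries was Itgb3, an integrin that other cells use too, at 6.74 CPM in female replicate 4 against 28.1 to 31.1 in the other females. The platelet chemokine Pf4, named after its values were seen, had all of its 11 reads in female replicate 4, and Ppbp, another platelet chemokine, 19 of 23.

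**Figure D4:**
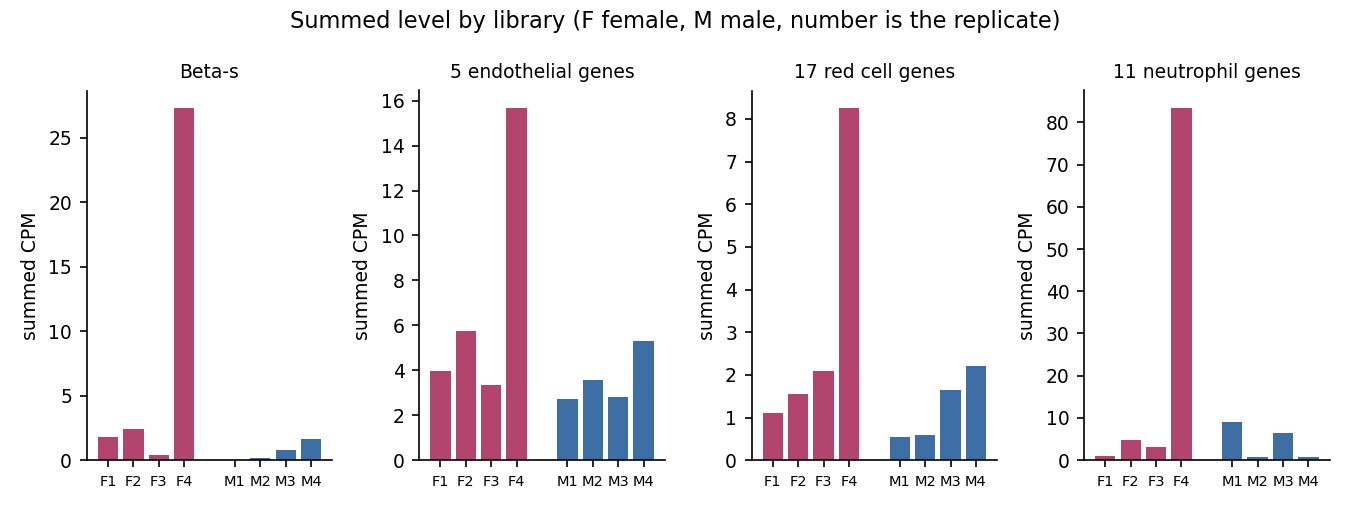
Summed CPM (bars, vertical axes, each panel with its own scale) in female libraries F1 to F4 and male libraries M1 to M4 for Beta-s, the 5 endothelial genes, 17 further red cell genes and 11 neutrophil genes. Female replicate 4 is the tallest bar in every panel, at 27.3, 15.7, 8.25 and 83.4 CPM, and male replicate 1 has no bar for Beta-s but is next for the neutrophil genes at 9.14 CPM.

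Further endothelial genes differed among themselves in female replicate 4. Of 33 such genes, 12 were tested between the sexes, and Ramp2, a receptor partner for adrenomedullin, was at 1.07 ± 0.27 (SE) on the log2 scale, with an unadjusted p of 0.00242 and an adjusted p of 0.492 (edgeR). Esam, an endothelial adhesion molecule, had -0.55 ± 0.21 (SE), with an unadjusted p of 0.0244 and an adjusted p of 0.651 (edgeR), and none of the 12 was called after adjustment. Their median log2 fold change was 0.15 with all libraries and -0.05 without female replicate 4. The summed level was 285 CPM in female replicate 4, against 202 to 249 in the other females and 219 to 247 in the males, a ratio of 1.22 to the mean of the other 7. The 3 most abundant were Egfl7, Gpr116 and Cd34, with means over all libraries of 52.5, 43.8 and 35.8 CPM. Tie1 and Erg, chosen after their values were seen, had 0.406 and 0.0769, so the sum follows mainly its abundant genes. Whether the reads of these came from endothelial cells was not tested. Egfl7 and Cd34 were highest in female replicate 4, at 70.6 and 42.6 CPM against 46.8 to 52.4 and 30.8 to 40.5. Gpr116 was lowest there with 12.8 CPM against 36.4 to 62.9. Named after their values were seen, Plvap, the diaphragm protein of fenestrated vessels, had 77 of its 178 reads in female replicate 4 and Eng, a TGF-beta co-receptor, 61 of 148. Also chosen after their values were seen, Robo4 and Sox18 had 49.7% and 47.3% of their summed CPM there, and Fli1 and Abcb1a 7.50% and 4.47%. With at least 10 reads, 16 of 29 were highest in female replicate 4, beside the 29.4% of all genes, and 1 (Clec14a) had over 50% of its CPM there. Mural cells wrap vessels. Their 16 listed genes gave a lower sum in that library, 146 CPM against 186 to 204 in the other females. The 3 most abundant were Mcam, Rgs5 and Pdgfrb, at log2 fold changes of 0.12, -0.47 and -0.28. Their adjusted p-values were 0.877, 0.696 and 0.842 (edgeR), and the median log2 fold change of the 5 tested was 0.005. Named after their values were seen, Acta2 had 24 reads in all and Myh11 3, so the sum holds little of them. Of 10 with at least 10 reads, 2 (Kcnj8 and Abcc9) were highest in female replicate 4, beside 29.4% of all genes. Of the lymphatic endothelial genes, Prox1 and Ccl21a were at 0 in every library, and Lyve1 was at -0.54 (log2 fold change), with an adjusted p of 0.696 (edgeR). The most abundant of them, Pdpn, went the other way at 0.46, with an adjusted p of 0.734 (edgeR), and Flt4 had 16 reads in all. The list summed to 69.9 CPM in female replicate 4, against 56.9 to 62.5 in the other females and 27.0 to 62.8 in the males.

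The ligands, co-receptors and partners of the endothelial genes differed among themselves too in female replicate 4. Of 7 VEGF ligands and co-receptors, 6 were tested and none had an unadjusted p under 0.05, with a median log2 fold change of -0.06. Their summed level was 140 CPM in female replicate 4, against 208 to 229 in the other females. The most abundant over all libraries were the co-receptors Nrp1 and Nrp2, which also bind semaphorins, both lowest in female replicate 4, and the ligand Vegfb. The ligand Pgf, named after its values were seen, was highest in female replicate 4 at 22.2 CPM, against 2.87 to 19.8 in the other 7. Of 14 junction partners, 13 were tested, and F11r (log2 fold change 0.70), Jam3 (0.63) and Cldn1 (0.68) had unadjusted p-values of 0.0307, 0.0164 and 0.0411, with adjusted p-values of 0.662, 0.637 and 0.696 (edgeR). Without female replicate 4 their log2 fold changes were 0.68, 0.39 and 0.55, and the unadjusted p-values were 0.0473, 0.0314 and 0.103. In that fit Jam2 (0.62) also had an unadjusted p under 0.05, at 0.0319, so that 3 of 13 passed. All 3 were higher in females, as were 5.68% of all genes at that threshold in that fit and 4.43% with all 8 libraries. Jam3 was highest in female replicate 4, at 55.3 CPM against 17.3 to 34.01 in the other 7, and so was Cldn1, at 8.09 CPM against 2.05 to 6.74. In all, 3 of the 14 were highest there, beside 29.4% of all genes. The 14 genes summed to 1530 CPM there, against 1649 to 1888 in the other females and 1542 to 1780 in the males. The most abundant partners were Jup, Ctnnb1 and Ctnna1, catenins that link cadherins to the cytoskeleton in many cell types. Jup was highest in female replicate 4, while Ctnnb1 and Ctnna1 were lowest there.

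Haem synthesis and iron uptake, which supply haemoglobin but run in every cell, gave a sum of 869 CPM in female replicate 4 against 776 to 834 in the other females and 801 to 838 in the males. Of its 12 genes all were tested and none was called with all 8 libraries. Tfrc, the transferrin receptor that takes up iron, had a female over male difference of -0.83 ± 0.29 (SE) on the log2 scale, where the adjusted p was 0.637 (edgeR), and its level was 33.2 CPM in female replicate 4, against 88.8 to 106 in the other females and 139 to 148 in the males, so that the sexes did not overlap. Without female replicate 4 it was called lower in females (adjusted p of 0.022, edgeR), at -0.57 ± 0.07 (SE) on the log2 scale. Whether its difference changed between these fits was not tested. Slc25a39 and Fech, the other 2 of the 3 most abundant, had log2 fold changes of 0.20 and -0.12, with adjusted p-values of 0.755 and 0.808 (edgeR).

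Summed levels of markers of the cells around neurons were also highest in the same library. The 15 genes of satellite glia and Schwann cells summed to 14940 CPM in female replicate 4, against 11630 to 11780 in the other females and 5445 to 11230 in the males, and the median log2 fold change of the 13 tested was 0.43. Apoe made up 10870 CPM of that sum. Of the 15 genes, 8 were highest in female replicate 4, beside 29.4% of all genes with at least 10 reads, while Erbb3, chosen after its values were seen, was lowest there. For 12 fibroblast genes the sum was 196 CPM, against 144 to 150 in the other females and 55.7 to 117 in the males, and 5 of 7 tested (Dcn, Mxra8, Col1a2, Lum and Bgn) had an unadjusted p under 0.05 with the higher level in females, beside 4.43% of all genes, at a median of 0.71. Without female replicate 4 it was 3 of 8 (Dcn, Mxra8 and Bgn), beside 5.68% of all genes in that fit, at a median of 0.64. None of these genes was called after adjustment with all 8 libraries by edgeR, while DESeq2 called Sox10 (adjusted p of 0.00757) and Dcn (adjusted p of 0.0121). Sox10, a transcription factor of glia, had a log2 fold change of 1.64 with an adjusted p of 0.413 in edgeR, and it was called there with the replicate block (adjusted p of 0.0189) and without female replicate 1 (adjusted p of 0.0169). The 15 neuronal genes summed to 39700 CPM in female replicate 4 against 28600 to 32140 in the other females. Of these, 11 were highest in that library, again beside 29.4% of all genes. The part of these shifts in the levels of the 8 genes was not tested.

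**Figure D5:**
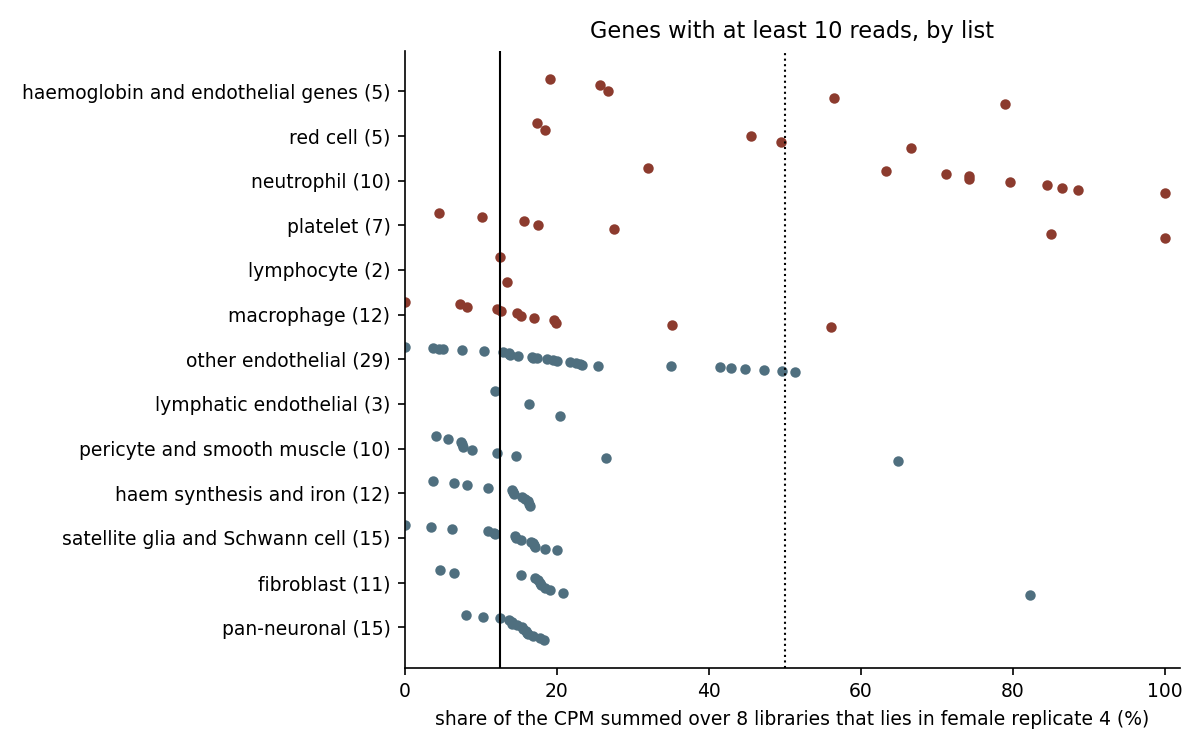
Share of the CPM summed over 8 libraries that lies in female replicate 4 (horizontal axis, percent), 1 point for each gene with at least 10 reads, by list (number of such genes in parentheses), with lines at the equal share of 12.5% and at 50%. Of the haemoglobin and endothelial genes, Beta-s is at 79.0%, Cldn5 at 56.5%, Flt1 at 26.7%, Kdr at 25.7% and Pecam1 at 19.1%. Of the neutrophil genes, 9 of 10 lie beyond the line at 50%, beside 0.369% of all genes with at least 10 reads.

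Among 10641 genes outside the 8 with a mean of at least 5 CPM, those whose level on the log2(CPM + 1) scale was most like that of the globin sum over 8 libraries were Nedd8, Txnl4b, Iscu, Dpm3 and Fkbp2, with Pearson correlations of 0.976, 0.969, 0.967, 0.965 and 0.964. For the endothelial sum they were Nasp, Ubl5, Ift52, Hemk1 and Gas8, with 0.979, 0.974, 0.974, 0.967 and 0.967. None of these 10 is a blood or vessel marker in the lists used here, and each was highest in female replicate 4, as Nedd8 at 334 CPM against 243 to 268 elsewhere. Over the 7 libraries without it the correlations lay between 0.806 and 0.939. They describe libraries that share depth and composition and were picked as the highest of many.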

How the data were processed

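RNA was sequenced from sorted WGA-488-labelled DRG neurons of 4 female and 4 male mice. Per the labels and the study's methods, the authors used TopHat2 to align 50-base single reads to mm9 and HTSeq for counting, and the deposited values are raw counts per gene with no normalization. Tool versions, annotation release and strand setting are not given in the sources used here. Summary lines of the counter (reads outside genes, ambiguous or with several alignments) stayed out of totals and tests. CPM are counts per 1000000 gene reads. The 8 genes and the marker lists were chosen with earlier results of these data known.

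Counts were tested with edgeR 4.0.16 in R 4.3.3 (quasi-likelihood test, TMM factors, default expression filter, sex as the only term, Benjamini-Hochberg adjustment over all genes that passed). The procedure was tested on simulated data. The unfiltered fit served genes below the filter. Log2 fold changes are female over male. The SE of an edgeR fold change was calculated back, as its absolute value divided by the square root of the F statistic of the test. Named list genes were the 3 most abundant of each list, those with an unadjusted p under 0.05 and defining markers at 0 throughout; others are said to be chosen after their values were seen. Coordinates and exon lengths came from GENCODE M1 on NCBIM37, promoters from RefSeq. Promoters of Pecam1 and Cdh5 were not used here. Alternatives were other scalings and filters, DESeq2 1.42.0, limma-voom (limma 3.58.1), a replicate block and leaving out each library. Mice differed between libraries, so p-values measure the spread between mice. Python 3.11.15, pandas 2.3.3 and matplotlib 3.10.9 were used. Whole ganglia, hindpaw tissue and the other neuronal preparations of the study were not analysed here.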

Additional observations from a re-analysis of the deposited data

Results flagged for a closer look

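In each sex, the library farthest from the other 3 was compared with the spread of its group for the 8 genes, their sums and the marker lists. Of 50 sets of 4 libraries, 8 had a library apart, 7 of them in female replicate 4. Chance flags about 1 in 20 such sets, but these sets share libraries, hold Beta-s also as the globin sum, include genes at 0 throughout and use values known when the genes were chosen, so their number is a description.

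In female replicate 4, Beta-s and with it the globin sum reached 27.3 CPM, where the other females had 0.417 to 2.43, and Cldn5 at 9.27 CPM, against 0.625 to 2.08. The red cell list was at 8.25 CPM there, against 1.10 to 2.08, and the neutrophil list reached 83.4 CPM, beside 1.10 to 4.69. The list of satellite glia and Schwann cell genes was at 14940 CPM, against 11630 to 11780, and the fibroblast list at 196 CPM, against 144 to 150. In male replicate 1 the macrophage list was the lowest of the males at 3.96 CPM, against 6.95 to 7.43.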

How the results depend on the processing

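No alternative called a member between the sexes. Over 16 settings with a value, the log2 fold change of Beta-s lay between 1.26 and 4.62 with adjusted p-values of 0.504 to 0.972 (edgeR, DESeq2 or limma-voom); without female replicate 1 it failed the expression filter and was not tested. Pecam1, near 0, turned to 0.0112 by library size alone, to 0.000703 with DESeq2, and to 0.23, 0.03 and 0.03 without female replicate 1, female replicate 2 and male replicate 2, in a range of -0.29 to 0.23 over the libraries left out; without male replicate 4, its highest library, it failed the expression filter and was not tested. Cdh5 turned to -0.34 without female replicate 4 and without a filter, a setting chosen after seeing the data. In all, 33 of 39 alternatives of the members' fold changes kept direction and side. The female mean of Beta-s, 7.98 CPM, went to 1.54 without female replicate 4, and its male mean, 0.650 CPM, to 0.325 without male replicate 4.

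Over all genes, 5 were called in the main fit, 42 with DESeq2, 1 to 78 with a library left out (78 without female replicate 1, 2 without female replicate 2, 3 without male replicate 1, 3 without male replicate 2, 1 without male replicate 4), and 14 in the added setting. Of the list genes, 0 were called (edgeR), against 2 with DESeq2 (Dcn and Sox10), 1 without female replicate 1 (Sox10), and 1 without female replicate 4 and in the added setting (Tfrc), a range of 0 to 1 over the libraries left out. With the replicate block, 1 gene was called over all genes and 1 of the list genes (Sox10), and Beta-s had a log2 fold change of 3.24 with an adjusted p of 0.592 (edgeR). Same-numbered libraries correlated by 0.0939, -0.109, 0.144 and 0.00476 in their deviations from the group means, against -0.243 to 0.151 for libraries of different numbers. The labels give no pairing beyond the number, and whether same-numbered libraries shared a day or batch was not tested. The cause of these changes was not tested. Depth limits Cdh5, Flt1 and Kdr, with 6, 47 and 37 reads in all.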

Other observations

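Further genes had most of their CPM in female replicate 4, and those given here were chosen after their values were seen. Of 14924 genes with at least 10 reads, 55 had over 50% of their summed CPM in that library, and 37 of these were in no list. The granulocyte genes Epx and Prss34 each had all of their 11 reads there, and Prg2, an eosinophil granule protein, had 19 of 22. The neutrophil enzymes Elane and Mpo had 17 of 17 and 59 of 67. Bglap, or osteocalcin, had all of its 16 reads in female replicate 4, Mmp13, a collagenase, had 15, with 3 in the other 7 libraries together, and Col1a1 had 194, with 0 to 18 in each other library. Another collagen gene of the fibroblast list, Col3a1, had 4.64% of its summed CPM there.

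Stab2, a scavenger receptor of sinusoidal endothelium, had 24 reads in female replicate 4 and 9 in the other 7 together, Gpr182 24 and 12, and Fabp4, a fatty acid carrier of microvascular endothelium and fat, 44 and 6. Lrg1, a secreted glycoprotein of endothelium, liver and neutrophils, had 46 and 6, and the chemokine Cxcl12 74 and 59. None of these values was tested, and a single library has no replicate.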
